A study of Homo sapiens with 8 samples.

Results

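ABCA1, ABCG1, NR1H2, NR1H3, MYLIP, LPCAT3, SREBF1 and SCD make up the LXR pathway and lipid efflux genes described here, 8 of the 23459 genes counted in total RNA of Hct116 cells. They are the LXR receptors and known target genes of these receptors, and they were selected on the ABCA1 counts of these libraries, which were higher in the lenalidomide-treated cells. The treatment difference itself therefore chose the group, and for its members the difference is given as a description. Calls by the fit across all genes are counted beside their background, and nothing is read from them. All 8 genes were found in the table by symbol and all 8 passed the filter on low counts.

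Liver X receptors (LXRs) are nuclear receptors that bind oxysterols, the oxidised derivatives of cholesterol, and act on DNA as heterodimers with retinoid X receptors (RXRs). Without a ligand they can hold corepressors at their target genes, and with a ligand they recruit coactivators. Their best known targets move cholesterol out of cells, restrain its uptake, or turn on fatty acid synthesis, and in the intestinal epithelium ABCA1 passes cholesterol to apolipoprotein A-I to form high density lipoprotein.

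Hct116, an established human colorectal carcinoma cell line, was treated for 16 h with 30 μM lenalidomide, a thalidomide derivative that redirects the CRL4-CRBN ubiquitin ligase, in 4 libraries. The other 4 libraries came from cells given the same volume of the solvent DMSO. Per the labels the cells grew in DMEM with foetal bovine serum. The methods of the study instead describe dialysed serum and a change to medium with heavy amino acids as the treatment began, in both arms. The paper adds that some replicates of each condition were reverse experiments with swapped isotope labels, and that RNA-seq used the mass spectrometry samples. Which libraries came from reverse experiments is not given in the sources used here. The labels do not tie a library to a culture, and p-values measure only the spread between these libraries, which may be technical. The paper calls the RNA-seq replicates biological in a figure legend, while its methods call the mass spectrometry replicates technical. Library totals lay between 28218471 and 37473413 counts, with the 4 lenalidomide libraries the smaller ones, and pairs of libraries correlated at 0.994 to 0.998 over the log2 CPM of the genes tested. Epithelial markers fixed for the line were present in 7 of 8 cases, with a summed level of 2385 to 2689 CPM (read counts scaled to a common library size) in DMSO and 2312 to 2647 CPM with lenalidomide. The exception was CEACAM5, with a mean of 0.0073 CPM in DMSO and 0.017 CPM with lenalidomide. Macrophage markers summed to 3.96 to 5.27 CPM in DMSO and 4.68 to 5.76 CPM with lenalidomide, nearly all of it CD68. Of the 7 macrophage markers, MRC1 was at 0 in all 8 libraries, and PTPRC, CD14, CSF1R, CD163 and LYZ each had a mean of at most 0.15 CPM in either treatment. PTPRC, at a mean of 0.028 CPM in DMSO and 0.15 CPM with lenalidomide, was higher in each treated library than in each control library. Of all genes tested, 1.24% had this pattern, but PTPRC lay near 0 and did not pass the filter on low counts. The part of PTPRC in the results was not tested. Hepatocyte markers summed to at most 1.59 CPM and fibroblast markers to at most 3.96 CPM.

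The promoter of ABCA1 is shown first because, of the promoters found for the group, it alone held a match to the repeat that an LXR-RXR heterodimer is known to bind. It is the RefSeq promoter on GRCh38.p14, chr9:104928106-104928405 on the minus strand, read 5′ to 3′ along the gene. Capitals mark the match to a direct repeat with 4 bases between its copies.
ABCA1 promoter: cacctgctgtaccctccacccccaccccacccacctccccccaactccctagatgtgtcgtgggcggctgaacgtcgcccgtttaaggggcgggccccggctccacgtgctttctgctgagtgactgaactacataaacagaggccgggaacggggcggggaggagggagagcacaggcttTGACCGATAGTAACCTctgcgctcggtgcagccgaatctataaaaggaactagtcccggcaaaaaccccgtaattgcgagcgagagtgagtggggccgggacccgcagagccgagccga
The motif searched was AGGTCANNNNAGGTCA on both strands with at most 2 mismatches, and the match lies from base -69 to base -54 relative to the start site, on the strand opposite to the gene. Read on that strand it is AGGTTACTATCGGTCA, with 2 mismatches. Of 35116 RefSeq promoters of the same length of 300 bases, 2.34% held such a match. The same promoter held the E-box CACGTG, found in 7.26% of all promoters, from base -147 to base -142. It also held TATAAA, found in 11.5% of all promoters, from base -31 to base -26. RefSeq promoters were found for 7 of the 8 genes, and the missing entry is that of ABCG1. A CCAAT box, searched on both strands and found in 34.6% of all promoters, was in promoters of MYLIP, SCD, NR1H3 and LPCAT3. A match describes the letters of this window and shows neither binding nor a cause.

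ABCA1 (Entrez gene 19; GRCh37 chromosome 9, 107543287 to 107690436, minus strand) encodes the transporter that hands cholesterol and phospholipid to lipid-poor apolipoprotein A-I. No exon of another gene overlaps its exons in the GENCODE annotation. It was counted 33, 39, 35 and 57 times in DMSO replicates 1 to 4, and 69, 81, 67 and 82 times in lenalidomide replicates 1 to 4. Each lenalidomide library held more ABCA1 reads than each DMSO library although it was the smaller library. After scaling for library size, the DMSO values were 0.883, 1.08, 1.02 and 1.505 CPM. The lenalidomide values were 2.24, 2.44, 2.04 and 2.84 CPM. The treatments did not overlap, and the closest pair was DMSO replicate 4 with lenalidomide replicate 3. Mean levels (± SD, n = 4 each) were 1.12 ± 0.268 CPM in the control arm and 2.39 ± 0.344 CPM in the treated arm. The log2 fold change was 1.08 (standard error 0.18, 95% confidence interval 0.69 to 1.48), a fold of 2.12. This is the difference for which the group was chosen.

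**Figure D1:**
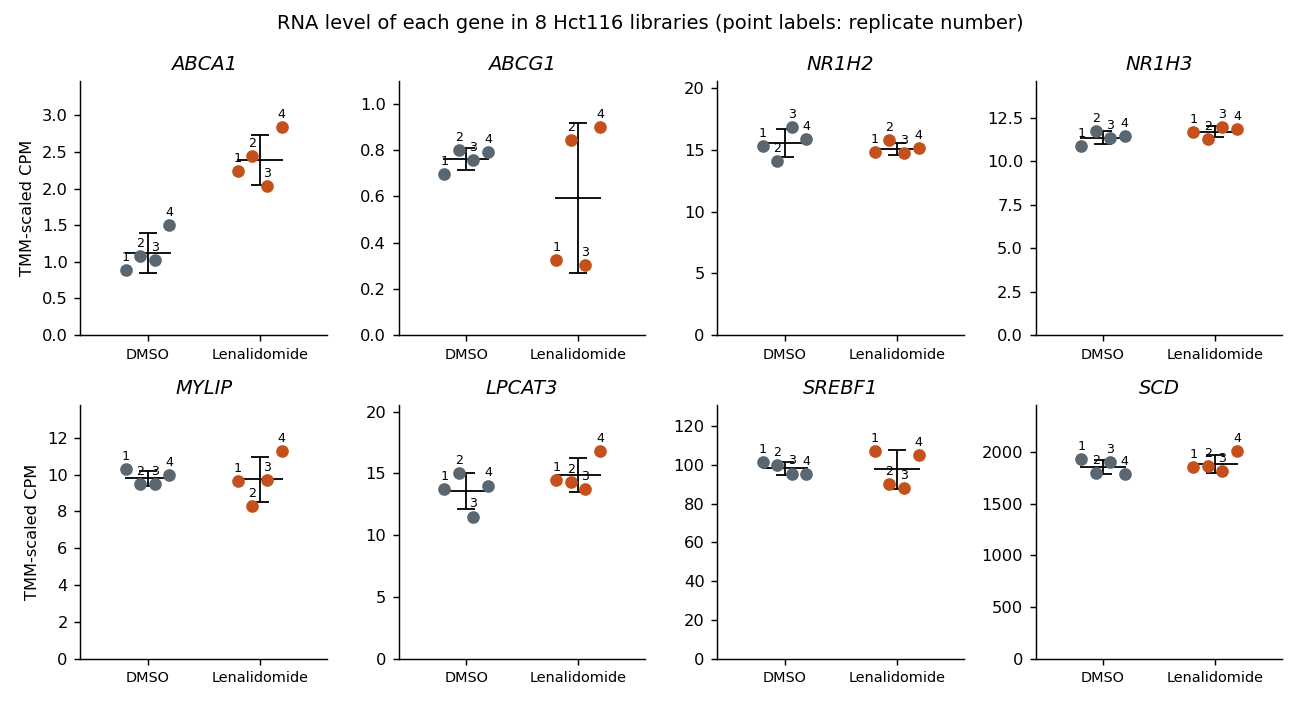
TMM-scaled CPM (y axis, from 0) of each of the 8 genes in 4 DMSO and 4 lenalidomide libraries, with the replicate number above each point and the mean ± SD as black bars. The 4 lenalidomide points of ABCA1, at 2.04 to 2.84 CPM, sit above its 4 DMSO points, at 0.883 to 1.505 CPM, and the points of the 2 treatments overlap in the 7 other panels.

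ABCA1 was scarce in both treatments, and counting error alone was wide. The exact Poisson 95% interval ran from 22.7 to 46.3 reads for DMSO replicate 1, the lowest count, and from 65.2 to 102 reads for lenalidomide replicate 4, the highest. These intervals cover counting error only, since reads copied by PCR were counted like any other read. The interval of DMSO replicate 4, 43.2 to 73.9 reads, overlapped those of all 4 lenalidomide libraries. Summed over libraries, 164 reads (interval 140 to 191) stood against 299 (interval 266 to 335). In bulk RNA, more transcript in every cell and more cells with the transcript cannot be told apart.

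**Figure D2:**
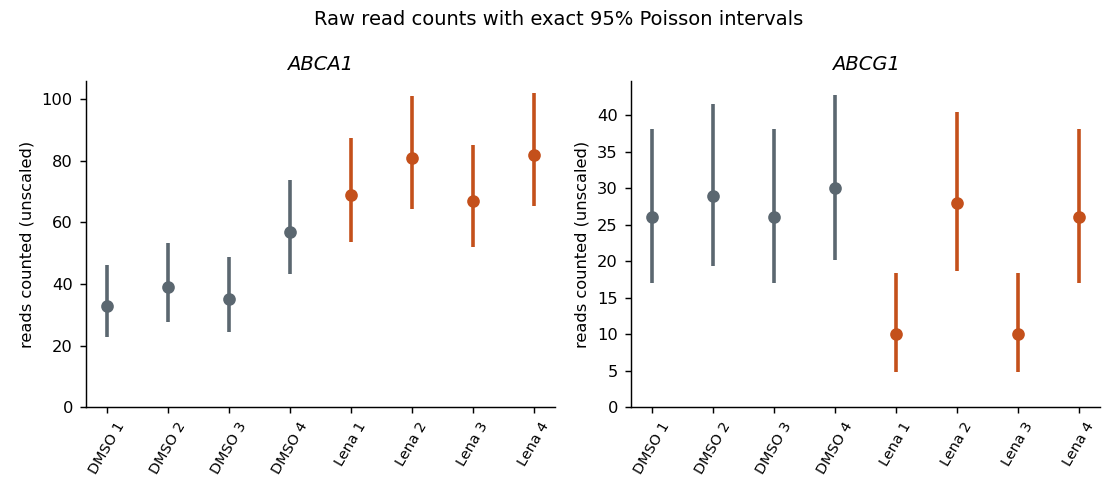
Unscaled read counts (y axis, from 0) of ABCA1 and ABCG1 in each library, with exact 95% Poisson intervals as bars. ABCA1 runs from 33 to 57 reads with DMSO and from 67 to 82 with lenalidomide, and ABCG1 falls to 10 reads in lenalidomide replicates 1 and 3 while the other 6 libraries hold 26 to 30.

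The number of genes with at least 1 count differed between libraries and moved with ABCA1 inside the DMSO group. It was 16953, 17873, 17630 and 18476 in DMSO replicates 1 to 4, the order in which the ABCA1 values stand, and 18053, 16998, 17667 and 19568 in lenalidomide replicates 1 to 4. The library numbered 4 had the most such genes and the highest ABCA1 value in each treatment. Without both of these libraries the log2 fold change of ABCA1 was 1.17, and after adjustment for the number of detected genes it was 1.02. Leaving out each library in turn gave values from 0.98 to 1.26. Among the 962 other genes tested with a mean within 1.5 times that of ABCA1, the median log2 fold change was 0.057 and 2.39% had all 4 lenalidomide values above all 4 DMSO values. Since ABCA1 was picked for its rise, its place among them was not read further.

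ABCG1 (Entrez gene 9619; chromosome 21, 43619799 to 43717354, plus strand, no overlapping exons) encodes a transporter that loads cholesterol onto more mature lipoprotein particles than ABCA1 does. It held 26, 29, 26 and 30 reads in DMSO replicates 1 to 4 and 10, 28, 10 and 26 reads in lenalidomide replicates 1 to 4. The DMSO libraries were alike and the lenalidomide libraries were not. Lenalidomide replicates 1 and 3 lay at 0.324 and 0.304 CPM, below every DMSO library. Replicates 2 and 4 lay at 0.844 and 0.901 CPM, above every DMSO library. The Poisson interval of a count of 10, from 4.8 to 18.4 reads, did not reach that of 28, from 18.6 to 40.5 reads, and overlapped that of 26, from 17.0 to 38.1 reads. Mean levels (± SD, n = 4 each) were 0.762 ± 0.0473 CPM in the control arm and 0.594 ± 0.324 CPM in the treated arm, a log2 fold change of -0.37 (95% confidence interval -1.05 to 0.32). It was -0.14 without lenalidomide replicate 3 and -0.62 without lenalidomide replicate 4, so that single libraries set its size.

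The 2 receptors were both expressed, and their values in the 2 treatments overlapped. NR1H2 (Entrez gene 7376; chromosome 19, 50832910 to 50886645, plus strand) encodes LXRβ, the form found in most tissues. It had 15.3, 14.1, 16.9 and 15.8 CPM in DMSO replicates 1 to 4 and 14.8, 15.8, 14.7 and 15.1 CPM in lenalidomide replicates 1 to 4. The lenalidomide values all lay within the DMSO range, and the log2 fold change was -0.041 (95% confidence interval -0.19 to 0.11). NR1H3 (Entrez gene 10062; chromosome 11, 47269851 to 47290584, plus strand) encodes LXRα, which is abundant in liver, gut, fat and macrophages and is itself an LXR target. It had 10.9, 11.8, 11.4 and 11.4 CPM in DMSO replicates 1 to 4 and 11.7, 11.3, 11.98 and 11.9 CPM in lenalidomide replicates 1 to 4. Its log2 fold change was 0.044 (95% confidence interval -0.10 to 0.19). NR1H3 varied less between replicates than most genes at its level. Its coefficient of variation beyond counting error was 5.92%, and 2.27% of 1937 genes within 1.5 times its mean had a lower one. Exons of NAPSA, on the opposite strand, cover 22.1% of the 5341 exonic bases of NR1H2 in GENCODE. Exons of ACP2, also on the opposite strand, cover 4.17% of the 4534 exonic bases of NR1H3. The models that were counted are narrower, at 2688 and 3365 bases, and their own overlaps were not computed. The methods give default QuasR parameters for the counting and spell out no strand setting. Reads of these genes and their partners therefore cannot be told apart in the overlaps.

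MYLIP, LPCAT3, SREBF1 and SCD are LXR targets that restrain sterol uptake or build and remodel lipids, and the 2 treatments overlapped for each of them. MYLIP (Entrez gene 29116; chromosome 6, 16129317 to 16148479, plus strand) encodes IDOL, a ubiquitin ligase that sends lipoprotein receptors to degradation. It had 10.3, 9.46, 9.47 and 9.98 CPM in DMSO replicates 1 to 4 and 9.63, 8.29, 9.70 and 11.3 CPM in lenalidomide replicates 1 to 4. The lenalidomide libraries held both its lowest and its highest value, and the log2 fold change was -0.013 (95% confidence interval -0.21 to 0.19).

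LPCAT3 (Entrez gene 10162; chromosome 12, 7085347 to 7125781, minus strand) encodes an acyltransferase that places polyunsaturated chains into membrane phospholipids. It had 13.8, 15.01, 11.5 and 14.0 CPM in DMSO replicates 1 to 4 and 14.4, 14.3, 13.8 and 16.8 CPM in lenalidomide replicates 1 to 4. Its lowest value was in DMSO replicate 3 and its highest in lenalidomide replicate 4, while the other 6 libraries lay between 13.8 and 15.01 CPM. The log2 fold change was 0.13 (95% confidence interval -0.069 to 0.32), and after ABCA1 and ABCG1 this was the largest in size of the group. It was 0.052 without DMSO replicate 3 and 0.061 without lenalidomide replicate 4, so that single libraries set its size too. Exons of EMG1 on the opposite strand cover 66.0% of its 4692 exonic bases in GENCODE. The model that was counted is narrower, at 2297 bases, and its own overlap with EMG1 was not computed. Part of these reads could belong to EMG1.

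SREBF1 (Entrez gene 6720; chromosome 17, 17713713 to 17740316, minus strand) encodes SREBP-1, the transcription factor of fatty acid synthesis, whose SREBP-1c form is switched on by LXR. It had 101.6, 100.02, 95.5 and 95.3 CPM in DMSO replicates 1 to 4. In lenalidomide replicates 1 to 4 it had 107.4, 90.1, 88.2 and 105.1 CPM. Lenalidomide replicates 2 and 3 lay below every DMSO value and replicates 1 and 4 above, and the SD was 9.96 CPM with lenalidomide against 3.16 CPM with DMSO (n = 4 each). The log2 fold change was -0.0069 (95% confidence interval -0.15 to 0.14). Counts per gene do not separate SREBP-1c from SREBP-1a. Exons of RAI1 on the opposite strand cover 6.75% of its 8234 exonic bases in GENCODE, and the model that was counted has 5879.

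SCD (Entrez gene 6319; chromosome 10, 102106990 to 102124583, plus strand, no overlapping exons) encodes the desaturase that makes oleic and palmitoleic acid, and it was by far the most abundant of the group. It had 1928, 1793, 1898 and 1789 CPM in DMSO replicates 1 to 4 and 1857, 1864, 1811 and 2012 CPM in lenalidomide replicates 1 to 4. It held 0.177% to 0.206% of all counts of a library, and 24th place among all 23459 genes by CPM in DMSO. The log2 fold change was 0.026 (95% confidence interval -0.10 to 0.16).

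**Figure D3:**
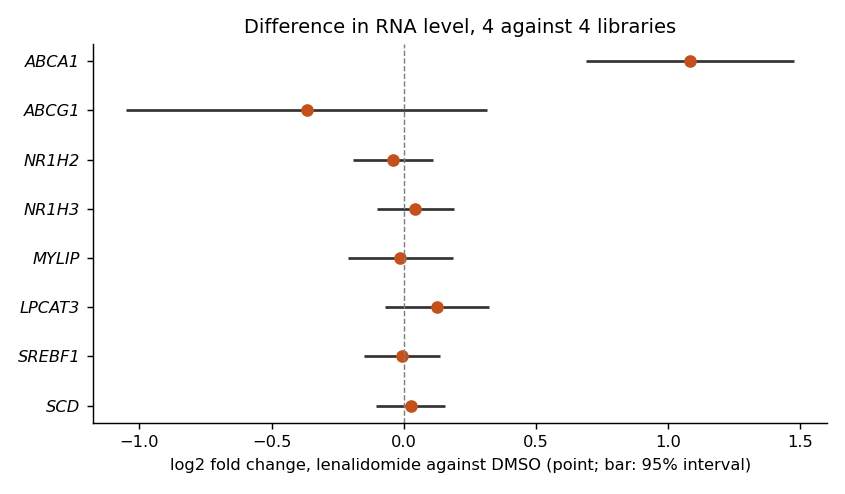
Log2 fold change of lenalidomide against DMSO (x axis) for the 8 genes, with the point estimate and its 95% confidence interval as a bar. ABCA1 lies at 1.08, ABCG1 at -0.37 with a bar from -1.05 to 0.32, and the 6 other genes lie between -0.041 and 0.13 with bars that include 0.

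Over the 8 genes the median log2 fold change was 0.0095, beside 0.0025 over all 13925 genes tested, with 4 genes above 0 and 4 below. The signs of MYLIP, SREBF1 and SCD changed under some of the alternatives. The number of members with all lenalidomide values above all DMSO values was 1, ABCA1, where 1.24% of all genes tested had this pattern, and the number with all values below was 0, where 0.840% had it. In edgeR's quasi-likelihood fit, after Benjamini-Hochberg correction across all genes, 0 of the 8 had an adjusted p under 0.05, where 0.0144% of all genes were called. The unadjusted p was under 0.05 for 1 of them, ABCA1, where 4.18% of all genes were. DESeq2 and edgeR's likelihood ratio test each called 1 of the 8, again ABCA1, where they called 9 and 12 of all 13925 genes tested. Nothing is read from these counts, since this comparison chose the group.

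The levels of the genes, compared per kilobase of exon, spanned more than 3 orders of magnitude and kept their order in both treatments down to the last pair. In DMSO, SCD stood at 338.7 ± 13.0 CPM per kb, above 99.0% of the genes tested, and SREBF1 followed at 16.7 ± 0.538 CPM per kb (SD, n = 4 each). LPCAT3 at 5.91 ± 0.643 and NR1H2 at 5.78 ± 0.427 CPM per kb had overlapping ranges. NR1H3 at 3.37 ± 0.109 and MYLIP at 3.19 ± 0.134 CPM per kb also overlapped. The range of NR1H2 lay wholly above that of NR1H3, and the ratio of their means was 1.71. ABCG1, at 0.173 ± 0.0107 CPM per kb, was above 4.74% of the genes tested, and ABCA1, at 0.104 ± 0.0249 CPM per kb, was above 2.38% of them. In DMSO the ranges of ABCG1 and ABCA1 did not overlap and ABCG1 was the higher. With lenalidomide ABCA1 stood at 0.222 ± 0.0320 and ABCG1 at 0.134 ± 0.0732 CPM per kb (SD, n = 4 each), with ranges that overlapped. Even then ABCA1 was above only 5.85% of the genes tested.

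**Figure D4:**
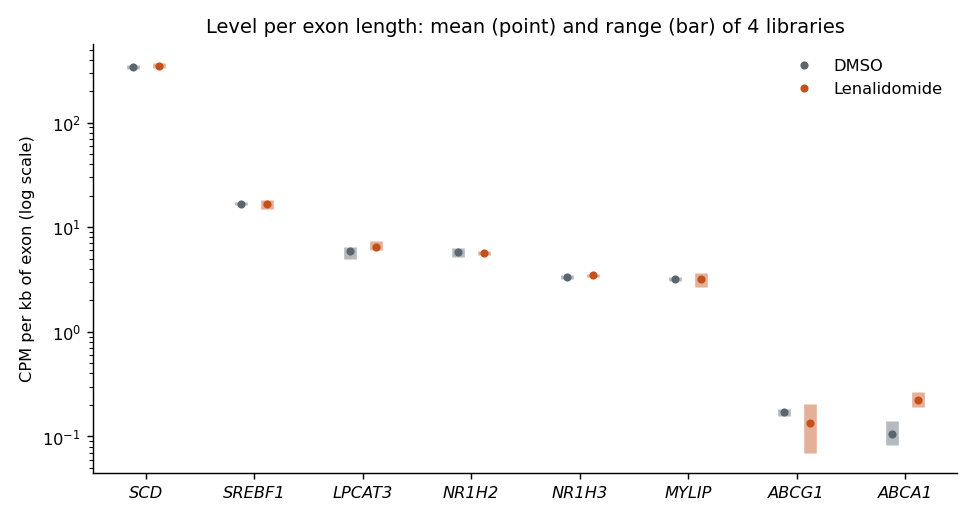
CPM per kb of exon (y axis, log scale) of the 8 genes in the order of their DMSO level, with the mean of 4 libraries as a point and their range as a bar, DMSO in grey and lenalidomide in orange. SCD stands at 338.7 in DMSO, 5 genes lie between 3.19 and 16.7, and ABCG1 and ABCA1 lie near the bottom, where ABCA1 moves from 0.104 with DMSO to 0.222 with lenalidomide.

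SREBF1 also carries a microRNA that is known to repress ABCA1. The RefSeq miR-33 sequences on GRCh38.p14 are shown because miR-33b is encoded within SREBF1 and miR-33a within SREBF2, and both share 1 seed (bases 2 to 8, in capitals).
hsa-miR-33b-5p: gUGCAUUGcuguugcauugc
hsa-miR-33a-5p: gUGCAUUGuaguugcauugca
The count table lists the hairpins as MIR33B, with 0 to 1 reads in a library, and MIR33A, with 0 to 2 reads. These total RNA libraries thus gave no usable level of either microRNA. The host SREBF2 averaged 109.6 CPM in the control arm and 110.3 CPM in the treated arm, a log2 fold change of 0.0094.

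Lists of genes around the pathway, set by function, were tested in the same fit. They held 126 genes, of which 125 were in the table and 100 passed the filter on low counts. In the quasi-likelihood fit of edgeR 0 of the 100 had an adjusted p under 0.05, where 0.0144% of all genes tested had one. DESeq2 and the likelihood ratio test also called 0, where they called 9 and 12 of all 13925 genes. With so few calls over all genes, a count of 0 says little about the lists. An unadjusted p under 0.05 was found for 8 of the 100, where 4.18% of all genes tested had one. The same share is the background of the count of each list below. Of these, 6 were higher with lenalidomide, where 3.26% of all genes were, and 2 were lower, where 0.919% were. Each gene named from these lists below, where tested, had an adjusted p of 0.999 in edgeR's quasi-likelihood fit.

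The partners and cofactors of LXR ranged from abundant to nearly absent, and none passed the test. Of 18 genes, 16 were tested, with log2 fold changes from -0.032 to 0.21, a median of 0.032 and 0 at an unadjusted p under 0.05. The most abundant per length were TBL1XR1 and HDAC3, both of a nuclear receptor corepressor complex, at 61.6 and 37.04 CPM per kb in DMSO, and MED1, a Mediator subunit that binds nuclear receptors, at 27.7 CPM per kb. Among the smallest unadjusted p values were those of the coactivator NCOA6 (log2 fold change 0.10) and of the acetyltransferase CREBBP (0.12). Without lenalidomide replicate 4 each of them was 0.049. RXRA and RXRB, the RXRs that were tested, stood lower per kb of deposited width, at 2.39 and 0.529 CPM per kb in DMSO. Their deposited widths are large, at 16762 and 22344 bases, and were not checked against the transcripts of these cells. Before division by width, RXRA and RXRB averaged 40.05 and 11.8 CPM in DMSO, so their low place per kb may reflect the width. RXRG, at a mean of at most 0.034 CPM, was too low to be tested.

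Many other target genes of LXR were silent in these cells. Of 16 listed, 15 were in the table and 7 were tested, with log2 fold changes from -0.11 to 0.44, a median of 0.050 and 0 at an unadjusted p under 0.05. CETP and APOC2 had 0 reads in all 8 libraries, which allows up to 0.011 CPM over their summed depth. APOE, a carrier of lipids made in response to LXR in macrophages, had a mean of 0.253 CPM in DMSO, and LPL had 0.027 CPM. The intestinal sterol exporters ABCG5 and ABCG8 had means of at most 0.034 CPM. Among the most abundant were the receptor kinase MERTK at 1.96 CPM per kb in DMSO and MLXIPL, which encodes the glucose-responsive factor ChREBP, at 0.982 CPM per kb. The smallest unadjusted p values were those of the phospholipid transfer protein PLTP (log2 fold change 0.28) and of MLXIPL (0.32), which was 0.18 without lenalidomide replicate 4.

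The enzymes that make and clear oxysterol ligands were mostly absent too. CH25H, which makes 25-hydroxycholesterol, had 0 reads in all 8 libraries, which allows up to 0.011 CPM over their summed depth. CYP7A1, CYP7B1 and CYP11A1 each had a mean of at most 0.067 CPM. Of 10 genes, 5 were tested, with log2 fold changes from -0.031 to 0.22, a median of 0.11 and 0 at an unadjusted p under 0.05. HSD3B7 and CYP39A1 were among the most abundant, at 0.963 and 0.349 CPM per kb in DMSO. The smallest unadjusted p values were those of HSD3B7 (log2 fold change 0.13), CYP46A1 (0.22) and CYP39A1 (0.11). Single libraries set their size, and CYP46A1 ran from 0.038 without DMSO replicate 1 to 0.62 without DMSO replicate 4. HSD3B7 was 0.075 without DMSO replicate 3, and CYP39A1 was -0.075 without DMSO replicate 4.

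Genes of fatty acid synthesis under SREBP-1 ranged from abundant to nearly absent, with THRSP at a mean of at most 0.042 CPM in either treatment. Of 18 genes, 17 were tested, with log2 fold changes from -0.090 to 0.23 and a median of 0.026. An unadjusted p under 0.05 was found for 3, where 4.18% of all genes tested had one. All 3 were higher with lenalidomide, where 3.26% of all genes were. They were ACACA, the carboxylase of the first step (log2 fold change 0.23, standard error 0.092), ELOVL6, an elongase (0.14, standard error 0.058), and LPIN1, a phosphatidate phosphatase (0.17, standard error 0.076). ACACA was 0.14 without lenalidomide replicate 4. The most abundant per length were ACLY at 118.3 CPM per kb in DMSO, FASN at 54.2 and ME1 at 39.6 CPM per kb, with log2 fold changes of 0.026, 0.12 and 0.093. Of the 6 genes that process SREBPs, all were tested, with a median of 0.0043. For 1 the unadjusted p was under 0.05, beside the same share of 4.18%. It was the protease gene MBTPS2 (log2 fold change 0.35, standard error 0.14). INSIG2 and INSIG1, which hold SREBPs in the endoplasmic reticulum, had log2 fold changes of -0.11 and -0.078. INSIG1, MBTPS1 and SREBF2 were the most abundant of them, at 55.5, 38.0 and 22.7 CPM per kb in DMSO.

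Of 15 genes of sterol efflux and trafficking, 14 were tested, with log2 fold changes from -0.096 to 0.26 and a median of -0.029. An unadjusted p under 0.05 was found for 2, where 4.18% of all genes tested had one. They were OSBP, a sterol carrier between endoplasmic reticulum and Golgi (log2 fold change 0.26, standard error 0.11), and NPC1, which exports cholesterol from lysosomes (0.17, standard error 0.077). NPC1 was 0.097 without lenalidomide replicate 4. LIPA, the lysosomal lipase, came next with -0.096, and was -0.16 without DMSO replicate 3. APOA1, whose product accepts cholesterol from ABCA1, had a mean of 0.021 CPM in DMSO. CAV1 was the most abundant at 140.9 CPM per kb in DMSO, followed by NPC2 at 43.8 and STARD4 at 23.8 CPM per kb.

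The other transporters of the ABCA and ABCG families were mostly scarce. Of 15, 8 were tested, with log2 fold changes from -0.29 to 0.37 and a median of 0.047. An unadjusted p under 0.05 was found for 1, where 4.18% of all genes tested had one. It was the drug exporter ABCG2 (log2 fold change -0.29, standard error 0.12, a mean of 5.05 CPM in the control arm and 4.12 CPM in the treated arm). ABCA12 and ABCA7 had log2 fold changes of 0.32 and 0.17, which became 0.18 for ABCA12 without DMSO replicate 3 and 0.089 for ABCA7 without lenalidomide replicate 4. ABCA2, ABCA7 and ABCA5 were the most abundant per length, at 2.77, 2.28 and 1.24 CPM per kb in DMSO, all above the 0.222 CPM per kb that ABCA1 reached with lenalidomide.

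For the substrates and conjugating enzymes of MYLIP, 6 of 7 genes were tested, with a median of -0.0011 and 0 at an unadjusted p under 0.05. UBE2D3 and UBE2D2, enzymes that pass ubiquitin to ligases, were the most abundant, at 129.4 and 26.7 CPM per kb in DMSO. UBE2D4 had a log2 fold change of 0.14 and UBE2D3 of -0.051. VLDLR was too low to be tested. The 8 genes of phospholipid remodelling, all tested, had a median of -0.024 and 0 at an unadjusted p under 0.05. PLA2G4A (log2 fold change -0.12), MBOAT7 (-0.12) and LPCAT2 (-0.11) had the smallest unadjusted p values, and LPCAT1, MBOAT7 and PLA2G4A were the most abundant at 18.0, 7.94 and 7.74 CPM per kb in DMSO.

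Of 15 other nuclear receptors and factors reported at ABCA1, 13 were tested, with log2 fold changes from -0.23 to 0.15 and a median of 0.0061. RARA, a retinoic acid receptor, was the 1 gene at an unadjusted p under 0.05 (log2 fold change -0.15, standard error 0.064), where 4.18% of all genes tested had one. It was also the 1 gene among all 100 whose treatments did not overlap, averaging 17.9 CPM in the control arm and 16.1 CPM in the treated arm, where 2.08% of all genes tested did not overlap. PPARA (log2 fold change 0.13, and 0.057 without DMSO replicate 3) and TFEB (-0.23) followed. USF2, SP3 and SP1 were the most abundant, at 33.4, 31.8 and 30.2 CPM per kb in DMSO.

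**Figure D5:**
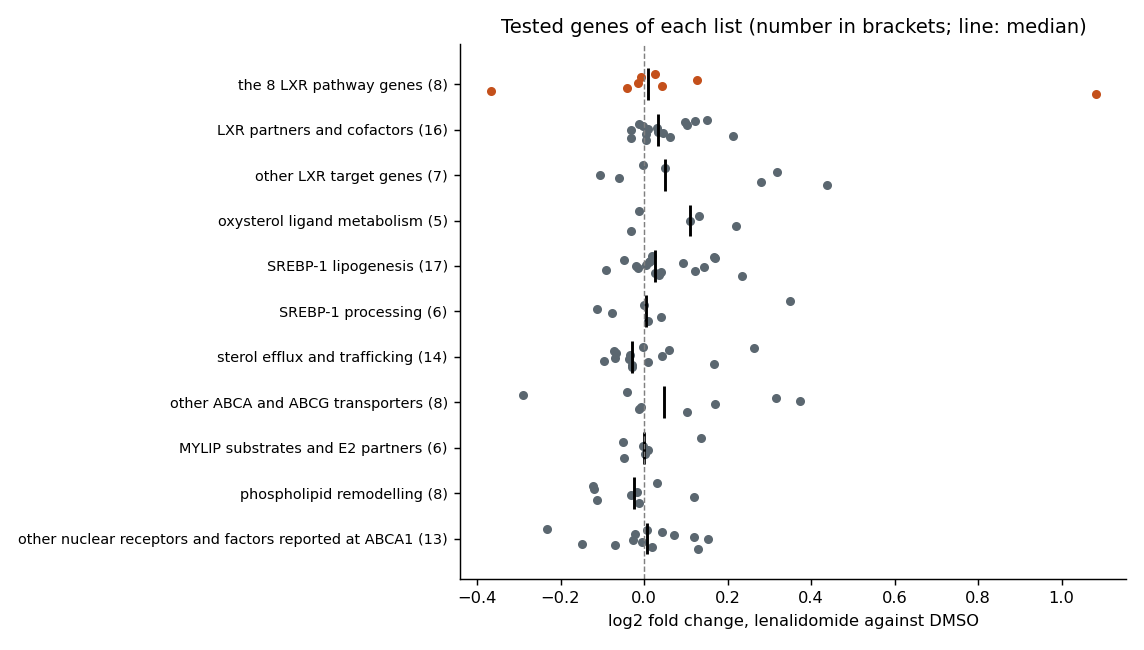
Log2 fold change of lenalidomide against DMSO (x axis) of every tested gene in the 8-gene group (orange) and in each of the 10 lists (grey), with the number of tested genes in brackets and the median as a vertical line. The list genes lie between -0.29 and 0.44, and ABCA1, at 1.08, for which the group was chosen, is the orange point farthest to the right.

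The genes whose pattern over the 8 libraries was most like that of ABCA1 were sought by the root mean square difference of log2(CPM + 0.5) profiles, each centred on its own mean, among 12597 genes averaging 1 CPM or more. The 5 nearest were CD22 (difference 0.22), MDGA1 (0.23), LMBRD1 (0.23), IL1RAPL1 (0.24) and LINC00852 (0.26). CD22, a lectin best known on B cells, had 1.15 to 1.40 CPM in the DMSO libraries. LMBRD1, which serves the lysosomal export of cobalamin, had 9.61 to 12.4 CPM in them. Of the other members, LPCAT3 was the nearest to ABCA1, with a difference of 0.39 and 6.18% of the genes nearer. ABCG1 was the farthest, with a difference of 0.59 and 99.4% of the genes nearer. Much of this likeness rests on the treatment step by which ABCA1 was chosen.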

How the data were processed

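RNA of 8 Hct116 libraries was measured by total RNA-seq, with ScriptSeq v2 libraries. The authors converted reads with bcl2fastq 2.17 (per the labels), used QuasR in its spliced mode against hg19, and deposited unnormalized counts per gene of the UCSC known gene models, beside the exonic width of each gene. The QuasR version is not given in the sources used here. Of 23459 rows, 70 had no symbol and held 0.0223% of the counts.

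The deposited counts went into edgeR 4.0.16 under R 4.3.3. Genes were kept by filterByExpr (minimum count 10, minimum total 15), which left 13925, and scaled by TMM factors between 0.971 and 1.02. The quasi-likelihood test compared lenalidomide with DMSO, with Benjamini-Hochberg adjustment at 0.05. DESeq2 1.42.0, other scalings and filters, a replicate block, thinning to 28218471 counts and leaving out libraries were the alternatives, and a covariate and the removal of 2 libraries were added after the data were examined. CPM per kb is scaled CPM divided by the deposited width. Gene positions are GENCODE on GRCh37, the build of the alignment, and sequences are RefSeq on GRCh38.p14.

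The 8 members and the lists were chosen with earlier results of these data known. From each list the text names the 3 genes with the smallest unadjusted p, the 3 most abundant per length and any gene past the threshold, except 4 genes that are not reported here. Genes listed at or near 0, and RXRA and RXRB, were named after their values were seen. Proteins were not used here.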

Additional observations from a re-analysis of the deposited data

Results flagged for a closer look

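Among 76 sets of 4 libraries, each set being 1 gene in 1 treatment, 2 had a library standing apart, and chance alone marks about 1 set in 20. Both lie in DMSO replicate 3. There LIPA reached 29.45 CPM while the remaining control libraries held 34.7 to 35.8 CPM. LPCAT2 reached 18.5 CPM there, and the remaining control libraries held 22.5 to 23.2 CPM. None of the 8 LXR pathway genes had a library marked in this way.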

How the results depend on the processing

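The 8 members were examined under 17 alternatives each, and all 136 log2 fold changes moved by less than the spread between replicates. For the fits with 1 library left out this was nearly fixed in advance. Leaving out 1 of 4 libraries moves a mean by less than that spread, so the count says little about stability. Over the 17 alternatives ABCA1 ran from 0.98 to 1.26 and ABCG1 from -0.62 to -0.14. The sign changed in 4 fits for SREBF1, 2 for MYLIP and 2 for SCD. The count of all genes called, 2, rose to 9 in DESeq2, to 12 in edgeR's likelihood ratio test and to 4 when no filter beyond 1 count was set, and it was 1 to 2 with each library left out in turn, and 4 each with the covariate and without both libraries numbered 4, the last 2 chosen after the data were seen. The cause was not tested. Adding a replicate block gave 6 called genes. ABCA1 was among the called genes in DESeq2, in the likelihood ratio test, without the filter and with the block, and not in the other alternatives. This comparison chose the gene, so its calls are no evidence for it. Deviations of same-numbered libraries correlated at 0.052, -0.0075, 0.0032 and 0.31 for replicates 1 to 4, and not every library correlated best with its own number, so the numbers were not taken to pair the samples. The lists gave 0 called genes in every alternative. Their count at an unadjusted p under 0.05, 8, was 2 to 10 with each library left out, with 3 without DMSO replicate 1, 3 without DMSO replicate 2, 4 without DMSO replicate 4 and 2 without lenalidomide replicate 4, and it was 3 without both libraries numbered 4. CYP39A1 changed sign, to -0.075, without DMSO replicate 4 and ran up to 0.20 when another library was left out. Of 330 log2 fold changes of the 30 genes named by p, 329 had an unchanged direction and call. These genes were picked by p in the same fit and lay far from the threshold. Their direction and call thus had little room to change, and the count is no evidence of stability. Depth limits ABCA1 and ABCG1, at 10 to 82 reads a library.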

Other observations

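Inside the lenalidomide group, ABCA1, ABCG1 and SCD stood in the same order over the libraries, with replicate 3 lowest, then 1, 2 and 4. Replicate 4 was also highest for MYLIP and LPCAT3, and it held the most genes with counts. In the DMSO group no such order was shared by these genes, with replicate 4 the highest for ABCA1 and the lowest for SREBF1 and SCD. These orders were noticed after the values were seen and were not tested.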
